A study of Mus musculus with 6 samples.

Results

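Wnt ligands are secreted glycoproteins that carry a palmitoleate added by the acyltransferase Porcn, leave the cell with the carrier Wls and act mostly on near neighbours. On the receiving cell they engage Frizzled receptors, either with Lrp5 or Lrp6, which stabilizes beta-catenin and switches on TCF/LEF target genes, or with Ror and other co-receptors, which act on cell polarity and calcium without beta-catenin. In the mammary gland, Wnt signals support epithelial stem cells and duct growth during puberty, and the stroma around the ducts is one of their sources.

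The messenger RNA of 10 Wnt ligand genes, *Wnt2*, *Wnt2b*, *Wnt4*, *Wnt5a*, *Wnt5b*, *Wnt6*, *Wnt9a*, *Wnt10b*, *Wnt11* and *Wnt16*, was compared between CD34hi and CD34lo mammary fibroblasts. They were taken by gene symbol from a table of 27179 genes, in which all 10 were found, and they belong to a family of 19 Wnt genes in that table. The libraries came from polyA RNA of cells sorted from the mammary glands of pubertal FVB/N mice (FVB/NJ in the study's methods) aged 6 weeks, for which no treatment or transgene is named. Both populations were lineage-negative, which removes cells with endothelial (CD31), leukocyte (CD45) or erythroid (TER-119) surface markers, and were also CD24- and Pdgfra+, so the sort set them apart by CD34. There were 3 pools of 2 mice, and each pool gave 1 CD34hi and 1 CD34lo library, 6 in all.

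Library totals ran from 28764779 to 52402410 counts. *Cd34* mRNA, read as a check of the sort, had 2571 ± 75.3 CPM (counts per 1000000 counted reads after TMM normalization, SD, n = 3) in CD34hi and 634 ± 158 (SD, n = 3) in CD34lo. *Pdgfra* had 754 ± 149 and 1256 ± 197 CPM, and *Cd24a*, whose protein both gates excluded, had 18.9 ± 4.03 and 5.07 ± 0.448 CPM, a log2 fold change of 1.90 (edgeR, adjusted p = 0.000103). Across 15219 genes with enough counts, edgeR's quasi-likelihood test called 35.6% at a Benjamini-Hochberg adjusted p under 0.05, 16.9% higher in CD34hi and 18.7% higher in CD34lo. The CPM ranges of the 3 CD34hi and 3 CD34lo libraries did not overlap for 50.1% of the tested genes.

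All 10 Wnt ligands had enough counts to be tested, and 8 passed. *Wnt10b*, *Wnt5b*, *Wnt11* and *Wnt2* were higher in CD34hi, and *Wnt4*, *Wnt6*, *Wnt9a* and *Wnt2b* were higher in CD34lo, while *Wnt5a* and *Wnt16* did not pass. The same 8 had ranges that did not overlap between populations. The median log2 fold change of the 10 ligands was 0.26, against -0.0064 over all tested genes. With 4 calls in each direction, this median lies between *Wnt5a* (-0.13) and *Wnt16* (0.65), which did not pass, so it shows no shift of the ligands. The differences covered a wide span, from 115-fold for *Wnt10b* and 40.9-fold for *Wnt4* to less than 2-fold for *Wnt2*, *Wnt9a* and *Wnt2b*. RNA was measured in bulk, so more cells with a transcript and more transcript in each cell cannot be told apart.

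**Figure D1:**
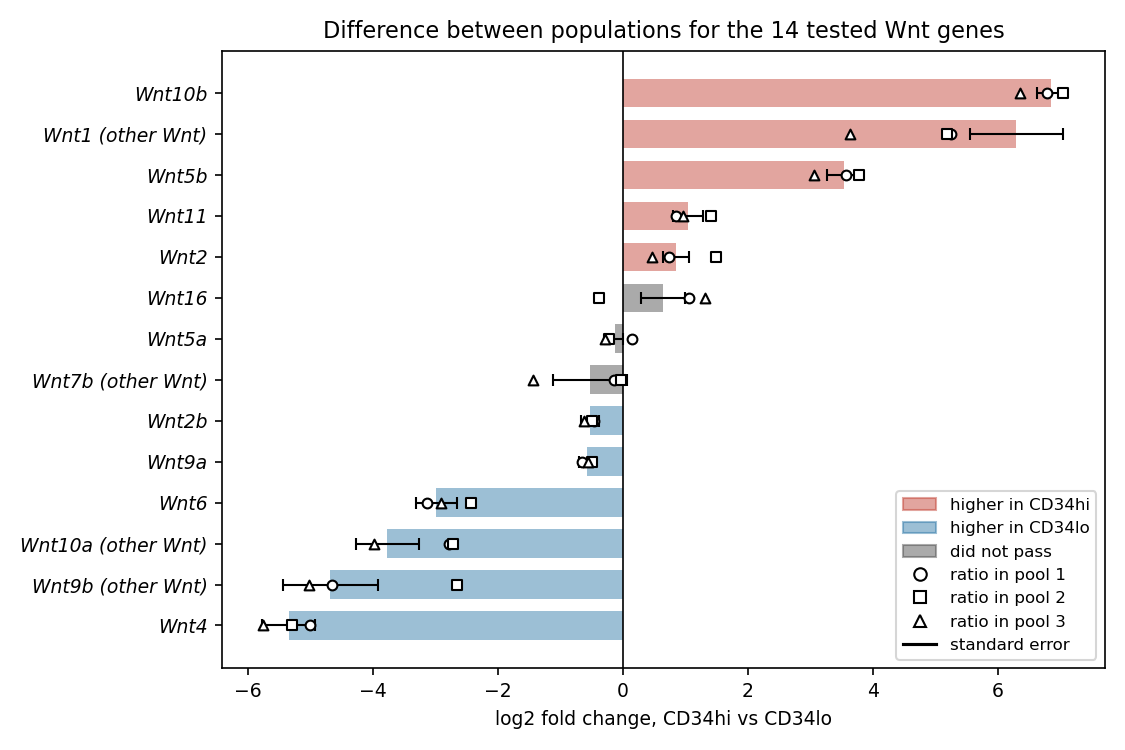
Log2 fold change between CD34hi and CD34lo (x axis) for the 14 Wnt genes that could be tested, with bars for the edgeR estimate, lines for its standard error and open symbols for the log2 ratio within each mouse pool, which includes a small added count. *Wnt10b* reached 6.85 and *Wnt4* -5.35, and the pools of *Wnt16* disagreed in direction, with pool 2 on the CD34lo side.

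*Wnt10b*, a ligand that signals through beta-catenin, marks the embryonic mammary placode and holds back fat cell formation, had the largest difference. This gene (Entrez 22410) lies on the minus strand at chr15:98771752-98778150 (GRCm38). Its level was 72.4, 82.1 and 53.9 CPM in the CD34hi libraries of pools 1, 2 and 3, and 0.609, 0.575 and 0.611 CPM in the CD34lo libraries. Every CD34hi library stood far above every CD34lo library, and the CD34lo libraries were nearly alike. The means were 69.5 ± 14.3 and 0.598 ± 0.0198 CPM (SD, n = 3 each), a log2 fold change of 6.85 with a standard error of 0.22 (edgeR, Benjamini-Hochberg adjusted p = 1.45e-06). The CD34lo level rested on 33, 16 and 19 counts, above the limit of 3 counts that corresponds to 0.0553 to 0.108 CPM in these libraries. Counting error at such counts is larger than the SD of 0.0198 CPM, so that SD understates the uncertainty of the CD34lo level. *Wnt1*, the proto-oncogene found at mammary tumour virus insertions, lies 11706 bases from *Wnt10b* on chromosome 15 and is transcribed in the other direction. It had 83, 64 and 62 counts in CD34hi and 0, 0 and 2 in CD34lo. All CD34hi libraries were above all CD34lo libraries here too, and the log2 fold change was 6.29 with a standard error of 0.74 (edgeR, adjusted p = 0.000263). With so few counts in CD34lo the size is loosely set. The ratio of the summed counts, corrected for library size, was 93.6, with a 95% interval of 25.6 to 778 that covers counting error only. Levels of *Wnt1* were low even in CD34hi, at 1.66 ± 0.260 CPM (SD, n = 3), and the length-corrected *Wnt10b* level exceeded that of *Wnt1* by 41.5-fold, 49.5-fold and 42.0-fold in the CD34hi libraries of pools 1, 2 and 3.

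The sequences before the RefSeq start sites of *Wnt10b*, *Wnt1* and *Wnt4* are shown because these were the ligand with the largest difference on each side and the neighbour of the first. They are written 5′ to 3′ in the direction of each gene (GRCm38.p6), cut to the bases outside annotated exons, and capitals mark matches to GGGCGG, the core of the GC box bound by Sp1-type factors, on either strand. The *Wnt10b* stretch is chr15:98778207-98778400 on the minus strand, the *Wnt1* stretch chr15:98789607-98789856 on the plus strand, and the *Wnt4* stretch chr4:137277385-137277488 on the plus strand.
Wnt10b: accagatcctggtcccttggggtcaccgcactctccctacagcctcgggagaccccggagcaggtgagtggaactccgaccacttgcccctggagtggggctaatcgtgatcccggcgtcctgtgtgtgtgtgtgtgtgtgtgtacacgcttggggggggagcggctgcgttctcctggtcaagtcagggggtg
Wnt1: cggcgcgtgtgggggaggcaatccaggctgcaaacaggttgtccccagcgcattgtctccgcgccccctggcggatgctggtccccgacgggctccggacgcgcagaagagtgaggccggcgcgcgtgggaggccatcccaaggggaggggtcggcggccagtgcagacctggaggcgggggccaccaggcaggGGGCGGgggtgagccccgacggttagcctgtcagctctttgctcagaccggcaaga
Wnt4: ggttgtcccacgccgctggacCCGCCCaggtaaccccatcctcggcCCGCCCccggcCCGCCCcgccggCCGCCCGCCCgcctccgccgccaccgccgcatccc

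In the whole window of 300 bases around each start site, GGGCGG had 0 matches for *Wnt10b*, 1 for *Wnt1* and 8 for *Wnt4*. Over 32851 RefSeq promoter windows of the same length, 35.7% held at least 1. The G and C content was 66.3%, 70.7% and 84.3% in these windows, against a median of 52.7% over all of them. None of the 3 windows held CTTTGA, the core recognized by TCF/LEF factors (found in 16% of all windows), GACCACCCA, a GLI consensus (0.253%), CCAAT (37.4%), CACGTG, the E-box (7.15%), or TATAAA (13.6%), each searched on both strands. These letters alone do not show where any factor binds.

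*Wnt4*, which acts downstream of progesterone in the mammary epithelium and is needed for side-branching, was the mirror case. This gene (Entrez 22417) lies at chr4:137277635-137299501. Its CD34lo libraries had 42.6, 20.3 and 31.5 CPM in pools 1, 2 and 3, and the CD34hi libraries had 1.28, 0.469 and 0.529 CPM. The lowest CD34lo library remained well above the highest CD34hi library, and pool 1 was the highest within each population. The means were 31.4 ± 11.1 CPM in CD34lo and 0.758 ± 0.449 CPM in CD34hi (SD, n = 3 each), a log2 fold change of -5.35 with a standard error of 0.42 (edgeR, adjusted p = 3.02e-05).

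*Wnt6*, a beta-catenin ligand made by many embryonic epithelia, sits on chromosome 1 next to *Wnt10a*, a ligand of teeth, skin and hair follicles, and the gap between them is 6699 bases. The pair moved to the same side. *Wnt6* (Entrez 22420, chr1:74771892-74785319) had 5.48, 2.91 and 3.63 CPM in CD34lo and 0.581, 0.497 and 0.441 CPM in CD34hi. Here as well the populations were separate, with a log2 fold change of -2.99 and a standard error of 0.32 (edgeR, adjusted p = 0.000161). *Wnt10a* was rarer, with 58, 23 and 56 counts in CD34lo and 5, 3 and 3 in CD34hi, and its log2 fold change was -3.77 with a standard error of 0.51 (edgeR, adjusted p = 0.000539). *Wnt10a* is the closest relative of *Wnt10b* in the family, and these paralogs lay on opposite sides of the comparison. Per length, *Wnt10b* exceeded *Wnt10a* by 570-fold to 874-fold in the CD34hi libraries, whereas in the CD34lo libraries the ratio was 0.299 to 0.613.

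*Wnt9b*, needed for kidney tubule formation, also had higher counts in CD34lo but varied between pools. It had 14.2, 1.65 and 10.2 CPM in the CD34lo libraries of pools 1, 2 and 3 and 0.514, 0.221 and 0.265 CPM in CD34hi. The pool 2 library was far below the other CD34lo libraries while still above every CD34hi library. The log2 fold change was -4.69 with a standard error of 0.76 (edgeR, adjusted p = 0.00156). Among the remaining Wnt genes, *Wnt7b* was tested and had -0.53 (adjusted p = 0.531). *Wnt3* had 1 count over the CD34hi and 15 over the CD34lo libraries, *Wnt7a* 2 counts and *Wnt8b* 6 counts in all, and *Wnt3a* and *Wnt8a* had 0, so these 5 genes were not tested.

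*Wnt5b* and *Wnt5a* are close paralogs best known for beta-catenin-independent signals, and *Wnt5a* is known to limit mammary branching. *Wnt5b* (Entrez 22419, chr6:119432531-119544347, minus strand) had 10.8, 8.56 and 7.06 CPM in the CD34hi libraries and 0.867, 0.575 and 0.804 CPM in the CD34lo libraries. Its populations were separate, at 8.82 ± 1.91 and 0.749 ± 0.153 CPM (SD, n = 3 each), and the log2 fold change was 3.53 with a standard error of 0.26 (edgeR, adjusted p = 2.05e-05). The *Fbxl14* gene overlaps the extent of *Wnt5b* on the opposite strand and had 5347 counts in all against 1203 for *Wnt5b*. Whether the counting used strand, and which annotation, is not given in the sources used here. The GENCODE exons of the pair share 0 bases, but these may differ from the exons that were counted. *Fbxl14* itself had a log2 fold change of 0.12 (edgeR, adjusted p = 0.509). Whether reads of *Fbxl14* entered the *Wnt5b* counts was not tested.

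*Wnt5a* (Entrez 22418, chr14:28505473-28525515) had 49.8, 46.5 and 50.1 CPM in CD34hi and 45.3, 54.4 and 60.9 CPM in CD34lo. The ranges overlapped, and the log2 fold change of -0.13 had a standard error of 0.13 (edgeR, adjusted p = 0.467). The ratio of *Wnt5a* to *Wnt5b* per length therefore moved with *Wnt5b*, from 2.49 to 3.85 in the CD34hi libraries to 28.3 to 51.2 in the CD34lo libraries.

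*Wnt2*, needed with *Wnt2b* to specify the lung and long known as a mammary stromal Wnt, was abundant in every library. It (Entrez 22413, chr6:17988940-18030445, minus strand) had 120.7, 117.5 and 103.7 CPM in CD34hi and 72.8, 41.9 and 75.1 CPM in CD34lo. The CD34lo library of pool 2 was the lowest, and the highest CD34lo value stayed below the lowest CD34hi value. The log2 fold change was 0.85 with a standard error of 0.21 (edgeR, adjusted p = 0.0127), and *Wnt2* passed in all 18 alternative fits.

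*Wnt2b* went the other way, by a smaller step. It (Entrez 22414, chr3:104944805-104961709, minus strand) had 5.95, 6.35 and 5.60 CPM in CD34hi and 8.24, 8.96 and 8.62 CPM in CD34lo. The values were tight within each population and did not overlap, and the log2 fold change was -0.53 with a standard error of 0.15 (edgeR, adjusted p = 0.0212). The call was lost in 6 of 9 fits with a pool or a library left out, those without pool 1, 2 or 3 and those without any one CD34hi library (adjusted p = 0.0545 to 0.131), and it held without any one CD34lo library. Per length, *Wnt2* exceeded *Wnt2b* by 31.3-fold to 34.3-fold in CD34hi and by 7.90-fold to 14.9-fold in CD34lo.

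*Wnt11*, which guides cell movements in the early embryo and branching in the kidney, was also higher in CD34hi. It (Entrez 22411, chr7:98838845-98854747) had 91.3, 78.4 and 59.8 CPM in CD34hi and 50.9, 29.4 and 30.8 CPM in CD34lo. The populations did not overlap, although the lowest CD34hi value, in pool 3, was close to the highest CD34lo value, in pool 1. The log2 fold change was 1.04 with a standard error of 0.24 (edgeR, adjusted p = 0.00858), and it was 0.89 without pool 2, where it no longer passed (adjusted p = 0.0694).

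*Wnt9a*, known for its part in joint formation, was higher in CD34lo. It (Entrez 216795, chr11:59306930-59333552) had 31.9, 33.1 and 27.2 CPM in CD34lo and 20.3, 23.3 and 18.4 CPM in CD34hi. Each pool showed a similar step, with log2 ratios of -0.65, -0.50 and -0.57 in pools 1, 2 and 3. The fitted log2 fold change was -0.57 with a standard error of 0.14 (edgeR, adjusted p = 0.0108). It did not pass without pool 1 (adjusted p = 0.109), without pool 2 (0.0504) or without the CD34hi library of pool 1 (0.0508).

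*Wnt16*, a ligand that maintains cortical bone, gave no call. It (Entrez 93735, chr6:22288227-22298522) had 5.14, 4.36 and 8.09 CPM in CD34hi and 2.45, 5.72 and 3.22 CPM in CD34lo. Pool 2 ran against pools 1 and 3, and the ranges overlapped. The log2 fold change was 0.65 with a standard error of 0.35 (edgeR, adjusted p = 0.188). Without pool 2 it was 1.23 (adjusted p = 0.0297), and without the CD34lo library of pool 2 alone it was 1.06 (adjusted p = 0.0353).

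The CD34lo library of pool 2 was the lowest of the 3 CD34lo libraries for *Wnt2*, *Wnt4*, *Wnt5b*, *Wnt6*, *Wnt9b*, *Wnt10a*, *Wnt10b* and *Wnt11*, and the highest for *Wnt2b*, *Wnt9a* and *Wnt16*. Some of these ranks rested on small margins, such as 0.575 against 0.609 CPM for *Wnt10b*, 29.4 against 30.8 for *Wnt11* and 33.1 against 31.9 for *Wnt9a*. How often this library was the lowest or highest over all tested genes was not counted, so no pattern of the library is claimed. It was also the smallest library, with 28764779 counts. Without it, *Wnt16* passed and no call among the other 9 ligands was lost.

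**Figure D2:**
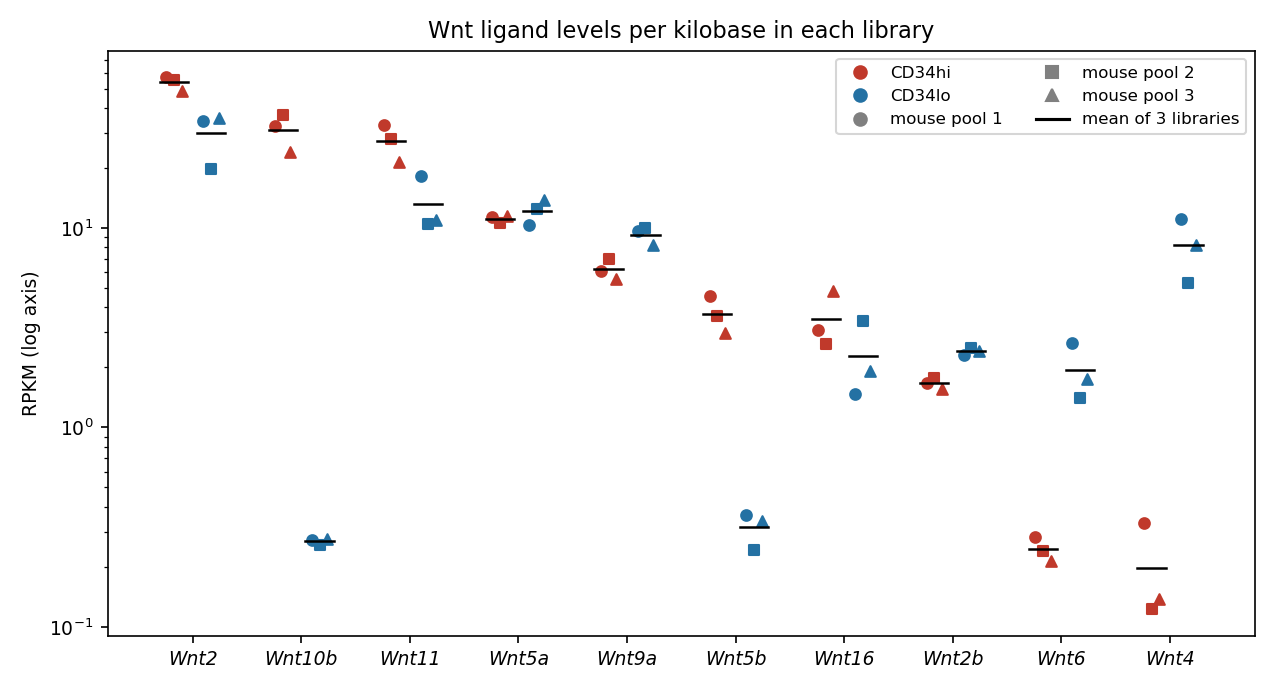
RPKM (y axis, log scale), which corrects counts for library size and gene length, of the 10 Wnt ligands in each of the 6 libraries, with colour for the population, symbol for the mouse pool and a line for the mean of 3. *Wnt2* led in both populations, at 53.9 and 29.9 RPKM, while *Wnt10b* had 31.2 RPKM in CD34hi and 0.269 RPKM in CD34lo.

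Levels of different ligands were compared as RPKM. In CD34hi fibroblasts, *Wnt2* had the highest level, 53.9 ± 4.28 RPKM (SD, n = 3), followed by *Wnt10b* with 31.2 ± 6.44 and *Wnt11* with 27.4 ± 5.68. *Wnt10b* and *Wnt11* could not be ordered, as their ranges overlapped. Then came *Wnt5a* with 11.2 RPKM, *Wnt9a* with 6.23 RPKM, *Wnt5b* and *Wnt16* with overlapping levels of 3.72 and 3.52 RPKM, and *Wnt2b* with 1.67 RPKM. *Wnt6* and *Wnt4* were lowest, with overlapping levels of 0.245 and 0.198 RPKM.

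In CD34lo fibroblasts, *Wnt2* again had the highest level, 29.9 ± 8.77 RPKM (SD, n = 3). *Wnt11* and *Wnt5a* followed with overlapping levels of 13.3 ± 4.33 and 12.2 ± 1.79 RPKM, and then *Wnt9a* and *Wnt4*, also overlapping, with 9.27 and 8.22 RPKM. *Wnt2b*, *Wnt16* and *Wnt6* had 2.41, 2.28 and 1.94 RPKM, with each range overlapping the next. *Wnt5b* and *Wnt10b* closed the order with overlapping levels of 0.316 and 0.269 RPKM.

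Summed over the 19 Wnt genes, the level was 151, 148 and 122 RPKM in the CD34hi libraries of pools 1, 2 and 3 and 94.7, 66.8 and 87.0 RPKM in the CD34lo libraries. All 3 CD34hi sums were above all 3 CD34lo sums. An exact permutation test of 3 against 3 libraries cannot give a two-sided p below 0.1, so none is given for this sum. *Wnt2*, *Wnt10b* and *Wnt11* together made up 77.5% to 81.7% of the sum in CD34hi, and *Wnt2*, *Wnt11* and *Wnt5a* 64.1% to 69.5% in CD34lo.

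The share of *Wnt2* was similar in size, 38.6% ± 1.38 and 35.6% ± 5.61 (SD, n = 3 each), with overlapping ranges. The share of *Wnt10b* was 22.1% ± 2.64 in CD34hi and 0.330% ± 0.0509 in CD34lo. On the CD34lo side, *Wnt4* took 9.72% ± 1.92 against 0.139% ± 0.0725, *Wnt9a* 11.5% ± 2.98 against 4.45% ± 0.358, and *Wnt5a* 15.2% ± 3.91 against 8.05% ± 1.17. The larger share of *Wnt5a* in CD34lo came with CPM ranges that overlapped, and with a lower sum over the family.

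**Figure D3:**
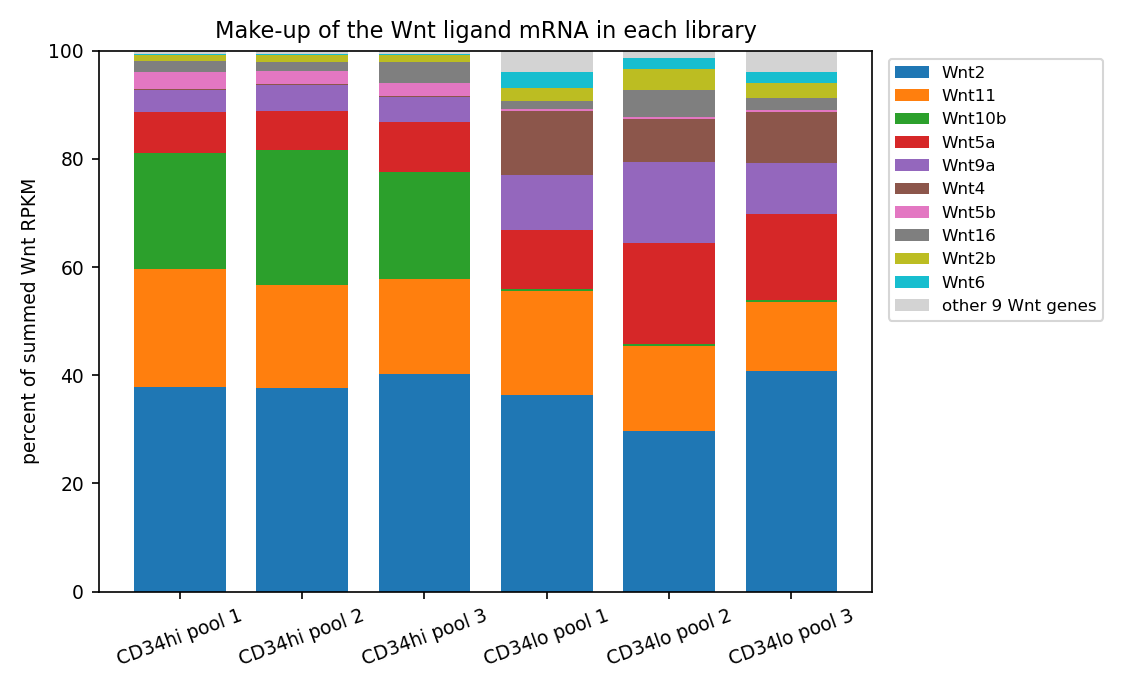
Percent of the RPKM summed over the 19 Wnt genes (y axis) that each ligand made up in each of the 6 libraries, with the 9 Wnt genes outside the 10 ligands in grey. *Wnt10b* (green) made up 19.8% to 25.0% in the CD34hi libraries and under 0.4% in each CD34lo library, where *Wnt4* (brown) made up 7.95% to 11.8%.

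The genes most like the extreme ligands were sought by the root-mean-square difference in log2 CPM over the 6 libraries, each gene centred on its mean. Nearest to *Wnt10b* were *Itgb7*, an integrin subunit, at 0.144, *Akr1c18*, an enzyme that inactivates progesterone, at 0.306, and *Adamts16*, a secreted metalloprotease, at 0.334. *Akr1c18* belongs to a cluster of similar genes whose reads may be split in counting. Nearest to *Wnt4* were *Kif26b*, a kinesin-family protein, at 0.27, *Col13a1*, a transmembrane collagen, at 0.290, and *D630003M21Rik* at 0.300. With 6 libraries in 2 populations, this measure ranks mostly the size of the difference.

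Around the 8 ligands that passed, the nearest tested genes that are not Wnt genes numbered 14. Of these, 2 were called in the direction of their ligand, 4 in the opposite direction and 8 were not called, beside the 35.6% called in either direction among all tested genes. *Arf3*, before *Wnt10b* on the chromosome, and *Adipor2*, beside *Wnt5b*, were the 2 that shared a direction, with log2 fold changes of 0.63 and 0.34. They are named after their values were seen.

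Of 10 genes for acylation, export and release, 9 were tested, 3 were higher in CD34hi and 0 higher in CD34lo, with a median log2 fold change of 0.10. This number of calls is close to the 35.6% of all tested genes. *Wls*, the carrier that all lipid-modified Wnt proteins need to leave the cell, had 244 ± 18.7 CPM in CD34hi and 247 ± 43.6 CPM in CD34lo (SD, n = 3 each), and *Porcn* had 6.46 and 7.56 CPM. Neither passed (edgeR, adjusted p = 0.942 and 0.358). The 3 called genes were *Vps26a* (0.58) and *Vps35* (0.43), retromer subunits that return Wls from endosomes, and *Tmed10* (0.46), a cargo receptor of early secretion. All 3 calls were lost without pool 1, without pool 2 and without the CD34hi library of pool 2.

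Among 7 genes for carriers and matrix modifiers, all tested, 4 were higher in CD34hi and 2 in CD34lo, with a median of 0.61. The shares over all tested genes were 16.9% and 18.7%. *Sulf1* (2.07) and *Sulf2* (1.56), which trim sulfate from heparan sulfate, and the glypicans *Gpc6* (0.76) and *Gpc3* (0.61) were higher in CD34hi. The glypican *Gpc1* had 57.8 ± 23.0 CPM in CD34lo and 5.12 ± 1.17 CPM in CD34hi, a log2 fold change of -3.50 (edgeR, adjusted p = 5.52e-05). *Trabd2b*, a metalloprotease that inactivates Wnt proteins, had -2.19 (adjusted p = 7.80e-05).

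On the receiving side, most calls were towards CD34lo. Of 10 Frizzled receptors, all tested, 1 was higher in CD34hi and 4 in CD34lo, with a median log2 fold change of -0.57. Among all tested genes, 16.9% were higher in CD34hi and 18.7% in CD34lo. *Fzd1* had the largest difference, with 192 ± 35.9 CPM in CD34lo and 46.6 ± 6.07 CPM in CD34hi (log2 fold change -2.04), and *Fzd3* (-1.52), *Fzd5* (-0.71) and *Fzd7* (-0.55) were on the same side. *Fzd10* was higher in CD34hi (1.85). *Fzd7* did not pass in 6 of 9 fits with a pool or a library left out, those without pool 1, pool 2, the CD34hi library of pool 1 or 2, or the CD34lo library of pool 2 or 3 (adjusted p = 0.0633 to 0.191). With the replicate block, the calls were 2 and 5, with *Fzd2* (log2 fold change 0.35, adjusted p = 0.0456) and *Fzd8* (-0.45, adjusted p = 0.0383) added.

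Of 9 co-receptors and alternative receptors, all were tested and called, 1 higher in CD34hi and 8 in CD34lo, with a median of -1.35. Over all tested genes, 35.6% were called. The pseudokinase co-receptor *Ptk7* had 124 ± 27.6 CPM in CD34lo and 12.0 ± 1.70 CPM in CD34hi (log2 fold change -3.37, adjusted p = 7.43e-06). The Wnt5a receptors *Ror1* (-2.23) and *Ror2* (-1.58), the muscle receptor kinase *Musk* (-1.50) and the beta-catenin co-receptors *Lrp5* (-1.35) and *Lrp6* (-0.75) followed. With a pool or a library left out, 6 to 9 of them were called. *Lrp6* did not pass without pool 2 (adjusted p = 0.0587), nor *Musk* without pool 2, pool 3 or the CD34lo library of pool 3 (0.0541 to 0.0745).

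Antagonists were divided, in a list of secreted proteins and the membrane proteins *Kremen1* and *Kremen2*. Of 13 listed, 9 were tested, 2 were higher in CD34hi and 5 in CD34lo, with a median of -1.17. These counts stand beside 16.9% and 18.7% of all tested genes. *Sfrp4* had 724 ± 27.5 CPM in CD34hi and 126 ± 38.3 CPM in CD34lo (2.52), and *Sfrp2*, 355 ± 12.5 and 116 ± 18.1 CPM (1.62). Their relatives *Frzb* (-4.32) and *Sfrp1* (-1.17), and the Dickkopf-family member *Dkk3* (-2.27), were higher in CD34lo. So was *Kremen1* (-0.82).

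Inside the cell, 2 of 13 shared transducers were called, *Apc2* (-0.93) and *Gsk3a* (-0.36), both in CD34lo, with a list median of -0.05. The share called over all tested genes was 35.6%. Leaving out a pool or a library gave between 0 and 2 calls. *Apc2* did not pass without pool 2 (adjusted p = 0.0977), nor *Gsk3a* without pool 1, pool 2, the CD34hi library of either or the CD34lo library of pool 2 (0.0544 to 0.227). Of 8 TCF/LEF factors and co-activators, 7 were tested and 3 called, 1 higher in CD34hi and 2 in CD34lo. That count is near the 35.6% called among all tested genes. *Tcf7* had 10.6 ± 4.48 CPM in CD34lo and 0.382 ± 0.172 CPM in CD34hi (-4.76, adjusted p = 8.05e-05), *Tcf7l1* had 0.59 (not passing without pool 1, pool 3 or the CD34hi library of pool 2 or 3, adjusted p = 0.0528 to 0.0768), and *Tcf7l2* had -0.30 at an adjusted p of 0.05, just under the threshold, and did not pass in 13 of the alternatives, the replicate block (0.0590) among them. *Lef1* had too few counts to test, with a mean of 0.0243 CPM in CD34lo and 0 in CD34hi.

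Of 14 genes commonly used as targets or feedback regulators of beta-catenin, 10 were tested, 1 was higher in CD34hi and 5 in CD34lo, with a median of -0.96. All tested genes had 16.9% higher in CD34hi and 18.7% in CD34lo. *Axin2*, the feedback inhibitor most used as a readout, had 23.9 ± 4.58 CPM in CD34hi and 41.2 ± 6.39 CPM in CD34lo, a log2 fold change of -0.78 with a standard error of 0.17 (edgeR, adjusted p = 0.00799). Without pool 2 it was -0.69 and did not pass (adjusted p = 0.0836). The Dishevelled antagonists *Nkd2* (-3.65) and *Nkd1* (-2.40) and the Frizzled-removing ligase *Znrf3* (-1.14) were on the same side, and the membrane-bound inhibitor *Apcdd1* (1.27) was on the other. *Tcf7* belongs to this list as well. Of 18 genes of the planar polarity and calcium branch, 17 were tested, with 4 higher in CD34hi and 7 in CD34lo and a median of -0.31. The same 2 shares of all tested genes apply here. *Nfatc2* (-2.34), a calcium-regulated transcription factor, *Prickle1* (-2.06), a polarity protein, *Camk2a* (-1.89), a calcium-dependent kinase, and *Daam2* (-1.78), a formin, had the largest differences beside *Ror2*.

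**Figure D4:**
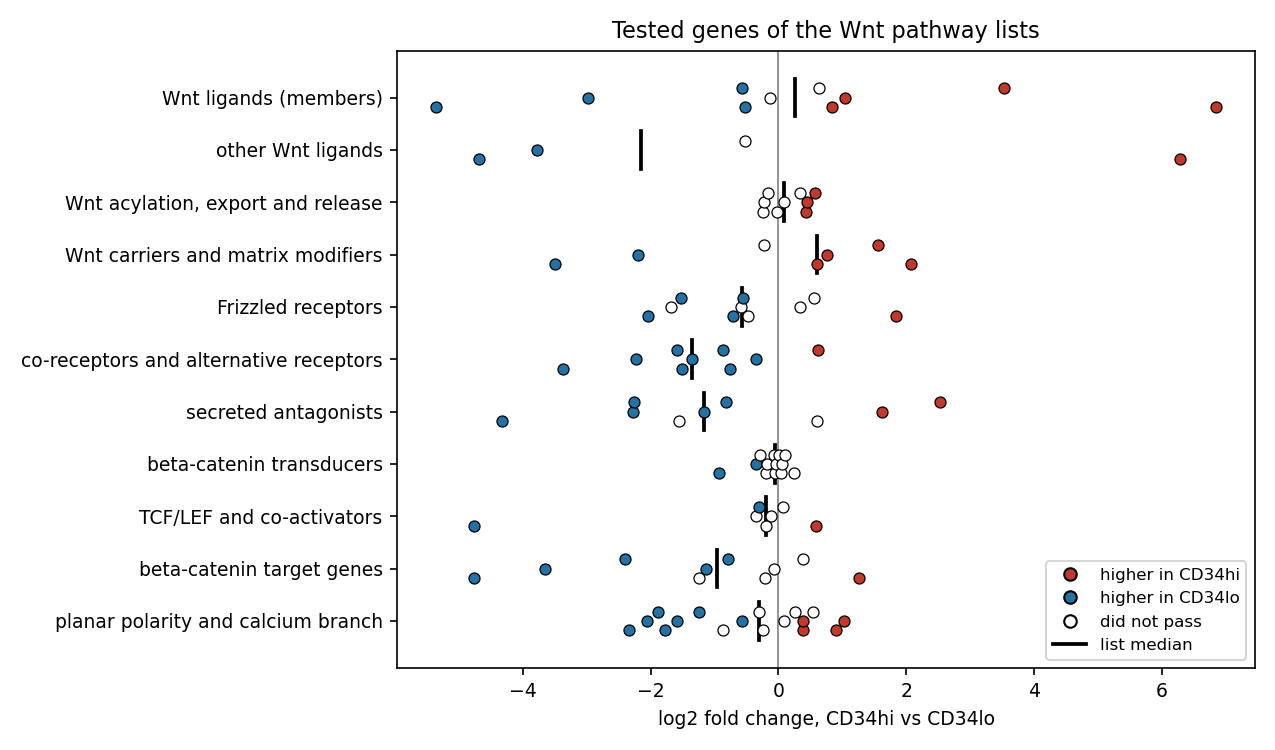
Log2 fold change between CD34hi and CD34lo (x axis) of every tested gene in the 11 Wnt pathway lists (y axis), with filled points for genes that passed the edgeR test, open points for those that did not and a bar for the list median. The ligands spread to both sides around a median of 0.26, while the median of the co-receptors was -1.35 and that of the antagonists -1.17.

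Markers of other cell types were low beside the fibroblast markers but not equal between the populations, and some sums reached the levels of ligands. Calls among all the markers stand beside the 35.6% called over all tested genes. The luminal sum in CD34hi, most of which was the single gene *Krt19*, overlapped the range of *Wnt10b* there (53.9 to 82.1 CPM). The macrophage sum in CD34lo, most of which was *Fcgr2b*, overlapped that of *Wnt4* there (20.3 to 42.6 CPM). The summed level of 5 fibroblast markers was 28390 to 31860 CPM in CD34hi and 31500 to 36430 CPM in CD34lo, and 4 of the 5 were called, *Igfbp5* higher in CD34hi (3.45) and *Lum* (-1.28), *Pdgfra* (-0.74) and *Col1a2* (-0.69) higher in CD34lo. Of 5 mammary luminal markers, 1 was called, with sums of 65.6 to 94.5 CPM in CD34hi and 32.8 to 45.8 CPM in CD34lo. That gene was *Krt19* (50.7 and 8.03 CPM), and the defining markers *Epcam* (5.96 and 4.82 CPM) and *Krt8* (15.7 and 15.1 CPM) did not pass. Of 5 basal markers, 1 was called, with sums of 10.2 to 19.4 and 4.06 to 4.94 CPM. That gene was *Oxtr* (10.5 and 0.296 CPM), and *Krt5*, *Krt14*, *Krt17* and *Trp63* did not pass. Keratinocyte markers were called in 2 of 2 cases, with 14.3 to 19.9 CPM in CD34hi and 3.60 to 7.12 CPM in CD34lo.

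On the CD34lo side, 2 of 3 endothelial markers were called, with sums of 7.83 to 24.0 CPM in CD34hi and 28.7 to 49.8 CPM in CD34lo. Pericyte markers were called in 2 of 2 cases, with 1.59 to 2.46 and 7.36 to 11.5 CPM. Of 5 macrophage markers, 3 were tested and 1, *Fcgr2b*, was called. Their sums were 2.57 to 3.20 CPM in CD34hi and 27.3 to 48.6 CPM in CD34lo. *Fcgr2b* made up most of each CD34lo sum, while *Cd68*, which did not pass, made up most of each CD34hi sum. *C1qa* had 0.136 and 0.855 CPM. Lymphocyte markers had larger sums in CD34hi, 14.5 to 17.4 against 3.95 to 7.66 CPM (2 of 2 tested called, 1 in each direction). Most of the CD34hi sum was *Cd3e* (14.9 and 3.8 CPM), while *Cd79a* (0.874 and 1.82 CPM) was higher in CD34lo. *Ptprc* had too few counts to test (0.149 and 0.252 CPM). Muscle markers summed to 1.28 to 1.57 and 3.50 to 3.88 CPM (1 of 2 tested called) and adipocyte markers to under 2 CPM (1 of 1 tested called). Lymphatic endothelial markers summed to 1.23 to 2.36 and 1.74 to 2.69 CPM (0 of 3 tested called). None of these marker lists was at 0 in all libraries. The part of such cells in the Wnt ligand differences was not tested.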

How the data were processed

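Reads were aligned to GRCm38/mm10 and counted per gene with Rsubread by the authors, who deposited raw counts with gene lengths. The annotation and the strand setting are not given in the sources used here. From these counts, genes were filtered with filterByExpr (15219 kept), normalized by TMM and tested with edgeR 4.0.16 (quasi-likelihood, population as the only term, Benjamini-Hochberg over all tested genes) in R 4.3.3. Log2 CPM and the log2 ratios within pools use a prior count of 2, while fold changes are the estimates of the edgeR fit at its own default. CPM and RPKM were computed on TMM-scaled library sizes. Replicates are separate mouse pools, and replicate libraries differed by at least 18.6 times the sampling variance. Both populations of a number came from the same pool, and their deviations correlated at 0.279, 0.0844 and 0.243 in pools 1, 2 and 3. Alternatives were a replicate block, limma-voom 3.58.1, DESeq2 1.42.0, other normalizations and filters, and leaving out pools or libraries. On simulated counts the edgeR step was tested for recovery. The ligands and gene lists were chosen with earlier results of these data known.

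All 10 ligands, the other Wnt genes and, per list, all called genes or the 5 with the largest change at a mean log2 CPM of at least 0 are named, plus *Wls*, *Porcn*, *Lrp5*, *Lrp6*, *Ror1*, *Ror2*, *Axin2*, *Lef1*, *Tcf7*, *Cd34* and *Pdgfra*. RefSeq promoter windows reach 250 bases before and 50 after a start site. One further list of cell type markers is not reported here.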

Additional observations from a re-analysis of the deposited data

How the results depend on the processing

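Over 180 comparisons of the 10 ligands with 18 alternatives, 168 kept direction and side of the threshold, 10 lost a call, 2 gained one and 0 reversed. The paired fit with a replicate block called the same number of ligands, 4 in each direction, and changed the call of no ligand. It lost *Tcf7l2*, added *Fzd2* and *Fzd8* and, among the beta-catenin targets and the planar polarity and calcium branch, raised the genes higher in CD34lo from 5 to 6 and from 7 to 8. It called 6161 genes in all against 5411. Without a pool or a library, ligands higher in CD34lo numbered 2 to 4 and all ligands called 6 to 9, while the number of genes was 3468 to 5236, with 1608 to 2456 higher in CD34hi and 1860 to 2780 in CD34lo. The lowest totals came without replicate 1. Called genes ranged over the same fits from 0 to 3 for acylation, export and release, 0 to 2 for the transducers and 1 to 2 for TCF/LEF and co-activators. The transducers had 1 call with no filter, the Frizzled receptors 8 with the replicate block in limma-voom, and the other Wnt ligands 0 when each library had to hold 10 counts or more of a gene, which removes *Wnt1*, *Wnt9b* and *Wnt10a*. *Wls*, near 0 throughout, turned to 0.0095 with no filter, 0.0962 without replicate 3, 0.0434 without CD34hi replicate 2, 0.0438 without CD34lo replicate 1 and 0.0938 without CD34lo replicate 3, within a left-out range of -0.16 to 0.0962. Apart from the filter, the cause was not tested. With 3 libraries a population, small steps such as those of *Wnt2b* and *Wnt9a* are near the limit of what can be called when libraries are left out. With all libraries and the replicate block both passed (edgeR, adjusted p = 0.0226 and 0.00333). *Wnt1* in CD34lo is near the counting limit.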
